A study of Mus musculus with 4 samples.

Results

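The lung lineage transcription factors are a group of 8 nuclear regulators, Nkx2-1, Foxa1, Foxa2, Cebpa, Gata6, Sox2, Sox9 and Hopx, and they were picked by gene symbol from the deposited expression table. All 8 were found among its 34147 distinct symbols, each on 1 row. RNA had been sequenced from 4 cultured mouse lung cancer lines with 1 library each. The lines 238N1 and 482N1 carried the label metastatic and the location lymph node. The lines 368T1 and 394T4 carried the label non-metastatic and the location lung. The strain 129S1/SvImJ and floxed alleles of the tumour suppressor p53 (p53flox/flox) are among what all 4 lines share, and their tumours were started with a viral vector carrying Cre recombinase, so no group lacks this background. The promoter that drove Cre, the age of the mice and whether each line came from another mouse are not stated in the labels used here. Each line is 1 culture, so an SD below measures the spread between 2 lines of a group, and no value within a line has a replicate. A p-value below tests a difference between groups of 2 lines, against a variance informed by all genes tested.

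Nkx2-1 is the homeodomain factor that specifies lung from the foregut and, in the adult lung, drives surfactant and club cell genes. It works with the forkhead factors Foxa1 and Foxa2, which open chromatin in foregut-derived epithelia, and with Gata6, which acts in distal lung epithelium. Cebpa is a leucine zipper factor of maturing alveolar type 2 cells. In the embryonic mouse lung Sox9 marks the distal tips of the branching epithelium and Sox2 the proximal airways, while Hopx, a small homeodomain protein that does not bind DNA, marks alveolar type 1 cells.

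The promoters of 4 of these genes are shown because the levels of Nkx2-1 and Foxa1 did not overlap between the groups and those of Foxa2 and Sox2 set 482N1 apart. Promoters of 6 of the 8 genes were matched by symbol in the RefSeq promoter table (GRCm38.p6). The sequences are the 250 bases before the annotated start, from 5′ to 3′ on the gene's strand, at chr12:56536909-56537158 (minus strand) for Nkx2-1, chr12:57546112-57546361 (minus) for Foxa1, chr2:148045465-148045714 (minus) for the most downstream of 3 Foxa2 starts, and chr3:34649745-34649994 (plus) for Sox2. Capitals mark matches to any of 5 motifs.
Nkx2-1: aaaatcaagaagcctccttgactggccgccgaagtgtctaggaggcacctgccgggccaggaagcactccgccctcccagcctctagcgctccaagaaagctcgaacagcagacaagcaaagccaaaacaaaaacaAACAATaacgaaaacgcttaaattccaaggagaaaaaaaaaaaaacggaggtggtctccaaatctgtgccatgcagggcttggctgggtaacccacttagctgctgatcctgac
Foxa1: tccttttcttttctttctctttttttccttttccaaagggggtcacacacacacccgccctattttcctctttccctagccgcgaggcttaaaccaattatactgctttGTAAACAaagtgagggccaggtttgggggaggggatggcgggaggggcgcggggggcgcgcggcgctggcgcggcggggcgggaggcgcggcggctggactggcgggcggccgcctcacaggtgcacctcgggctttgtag
Foxa2: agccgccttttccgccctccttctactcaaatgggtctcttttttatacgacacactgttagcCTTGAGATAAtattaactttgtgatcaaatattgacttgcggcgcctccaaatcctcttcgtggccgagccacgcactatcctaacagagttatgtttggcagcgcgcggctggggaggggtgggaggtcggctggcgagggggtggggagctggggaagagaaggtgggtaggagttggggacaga
Sox2: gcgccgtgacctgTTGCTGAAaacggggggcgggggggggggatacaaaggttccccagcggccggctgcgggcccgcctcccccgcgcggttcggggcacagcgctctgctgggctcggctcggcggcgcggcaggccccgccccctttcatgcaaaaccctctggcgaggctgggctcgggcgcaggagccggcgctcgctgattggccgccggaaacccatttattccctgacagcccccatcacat
The motifs were searched on both strands over the 250 bases of all 32851 promoters in the table. The core bound by the NKX2-1 protein, spelled CTCAAG, matched in 13.3% of them. The forkhead core, spelled TGTTTAC, matched in 3.17%. The core of the GATA proteins, spelled AGATAA, matched in 9.99%. The core of the SOX proteins, spelled AACAAT, matched in 9.42%, and that of the C/EBP proteins, spelled TTGCNNAA, in 9.56%. The Foxa1 promoter held a forkhead match that starts 141 bases before the transcript start. The Nkx2-1 promoter held a SOX match and the Sox2 promoter a C/EBP match. The third Foxa2 start held an NKX2-1 match on the reverse strand that overlaps a GATA match, and the other 2 Foxa2 starts held none of the 5 motifs. These matches are letters in a window and were not tested for binding. The Sox2 promoter was 72% G and C with 27 CpG pairs, against a median of 52.4% and 6 pairs over all promoters. The Nkx2-1 promoter was 50.8% G and C with 9 CpG pairs.

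The libraries differed in composition. Values are FPKM (fragments per length of transcript, scaled to the mapped fragments of the library), so levels may be compared between genes. FPKM summed to between 924354 and 2279794 per library, of which 1 row, AC113316.1, took 18.7% to 62.4%, while protein-coding genes summed to between 413128 and 492076. Read totals are unknown. If all libraries were normalised alike, the smallest steps of the values would put the depth of 482N1, 368T1 and 394T4 at 0.581, 0.61 and 0.554 of that of 238N1, but only 130 to 162 of 761 to 952 low genes lay within 1% of that ratio. Of 22315 protein-coding rows, 7255 were listed at 0 in all 4 libraries. Of 5611 rows that reached 20 FPKM anywhere, 313 were listed at 0 in at least 1 library, so an exact 0 may be a failed estimate and is given only as listed at 0. The epithelial markers Epcam, Cdh1, Krt8, Krt18 and Krt19 were above 1 FPKM in every line.

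Of the 8 genes 7 were tested and none passed. The group comparison asked which of these factors distinguish metastatic from non-metastatic lines, with limma on log2(FPKM + 1) over the 12425 genes with a mean of at least 1 FPKM. After Benjamini-Hochberg adjustment over all of them, 0 of the 7 tested factors had an adjusted p under 0.05, against 0.113% of all genes called higher and 0.0483% called lower in the metastatic lines. At an unadjusted limma p under 0.05 there were 2 of 7, Nkx2-1 and Foxa1, against 14.4% of all genes. Nkx2-1 passed the filter through the non-metastatic lines alone, so the filter favoured its place in this count. Every difference below is given on this log2(FPKM + 1) scale as metastatic minus non-metastatic, which understates the change of low genes. Hopx, the 8th factor, was under the filter. With 2 lines against 2, an exact two-sided permutation test of 1 gene cannot go below p = 0.333.

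**Figure D1:**
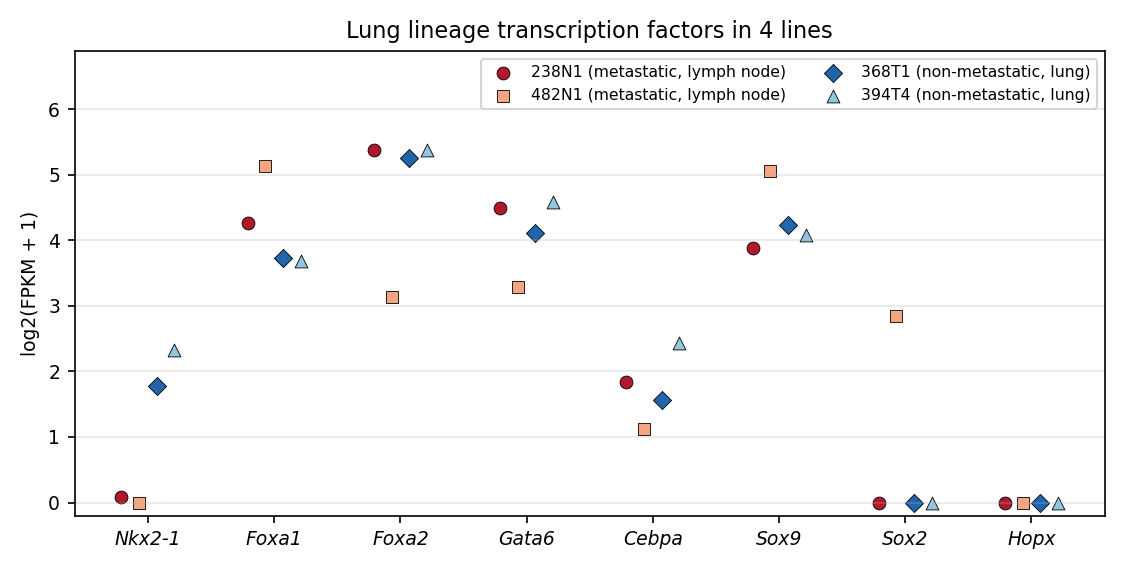
Level of each factor in each line as log2(FPKM + 1), 1 point per line and library, with no error bar because each line was sequenced once. Nkx2-1 lies near 0 in both metastatic lines, Foxa2 and Gata6 are lowest and Foxa1, Sox9 and Sox2 highest in 482N1, and Hopx is listed at 0 throughout.

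Nkx2-1 RNA was at or near 0 in both metastatic lines and low but measurable in both non-metastatic lines. The gene lies on chromosome 12, 57632922 to 57637895 (mm9, minus strand), with 3 exons. Its level was 4.00 FPKM in 394T4, 2.42 in 368T1 and 0.0619 in 238N1, and it was listed at 0 in 482N1. The groups did not overlap, and 368T1 and 394T4 stood 39.1 and 64.6 times above 238N1. The non-metastatic mean was 3.21 ± 1.12 FPKM and the metastatic mean 0.0310 ± 0.0438 FPKM (SD, n = 2 each). The limma difference was -2.004 (SE 0.38) with an adjusted p of 0.328. Even where it was highest, Nkx2-1 ranked low among protein-coding genes above 0, at the 34.6th percentile in 394T4 and the 29.3rd in 368T1, and at the 7.20th in 238N1. Of the 5 epithelial markers 4 were also lower in both metastatic lines, against 26.9% of all genes tested and with none past the test, and their summed level was 3485 FPKM in 368T1, 3188 in 394T4, 2566 in 238N1 and 1761 in 482N1. Epcam, the epithelial adhesion molecule, had 53.98 FPKM in 368T1, 34.3 in 394T4, 4.76 in 482N1 and 4.13 in 238N1. Its difference of -3.02 was the largest of the 5, against -1.11 for Krt19, -0.63 for Krt8 and -0.49 for Krt18. Cdh1 was the exception, with 173.8 FPKM in 238N1, 155.1 in 394T4, 108.7 in 368T1 and 104.4 in 482N1 (difference 0.05). The part of these markers in the Nkx2-1 difference was not tested. In bulk RNA, fewer cells with the transcript and less transcript per cell cannot be told apart.

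Foxa1 was higher in the metastatic lines, most of all in 482N1, without passing the test. The gene lies on chromosome 12, 58641618 to 58647108 (mm9, minus strand). Its level was 34.15 FPKM in 482N1 and 18.2 in 238N1, against 12.2 in 368T1 and 11.8 in 394T4. The groups did not overlap, and the non-metastatic lines lay close together, while 482N1 was 1.87 times as high as 238N1. The means were 26.2 ± 11.3 FPKM against 12.04 ± 0.280 FPKM (SD, n = 2 each). The limma difference was 0.996 (SE 0.34, adjusted p = 0.340), and it fell to 0.56 without 482N1 (adjusted p = 0.511). Nkx2-1 was thus the 1 factor of 7 with both metastatic lines below and Foxa1 the 1 with both above. Over all genes tested 26.9% were below and 28.3% above in this way, so such a split is common in these 4 lines. The place of Nkx2-1 below was also favoured by the filter, which it passed through the non-metastatic lines alone.

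Foxa2 showed the reverse picture in 1 line. The gene lies on chromosome 2, 147868613 to 147872705 (mm9, minus strand), and was the most abundant of the 8 in 238N1, 368T1 and 394T4. Its level was 40.6 FPKM in 238N1, 40.6 in 394T4, 37.0 in 368T1 and 7.77 in 482N1. The other lines were nearly level, 4.77 to 5.23 times above 482N1, and the groups overlapped. In rank among protein-coding genes above 0, Foxa2 stood at the 85.5th percentile in 238N1, the 82.1st in 368T1, the 83.4th in 394T4 and the 46.3rd in 482N1. The limma difference was -1.06 (SE 0.79, adjusted p = 0.490), and without 482N1 it was 0.07 (adjusted p = 0.827), the opposite sign.

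Because the FOXA proteins bind much the same DNA motif, their share of the family was also read within each library, where scaling between libraries has no part. Foxa1 made up 80.7% of the summed FPKM of Foxa1, Foxa2 and Foxa3 in 482N1, against 30.1% in 238N1, 24.2% in 368T1 and 22.2% in 394T4. The ratio of Foxa1 to Foxa2 was 0.331 in 368T1, 0.292 in 394T4, 4.40 in 482N1 and 0.449 in 238N1. Foxa1 was thus the major FOXA transcript in 482N1 and Foxa2 in the other lines. The family sum varied less, from 42.3 FPKM in 482N1 to 60.6 in 238N1. Foxa3, the third paralog, contributed at most 2.91%.

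**Figure D2:**
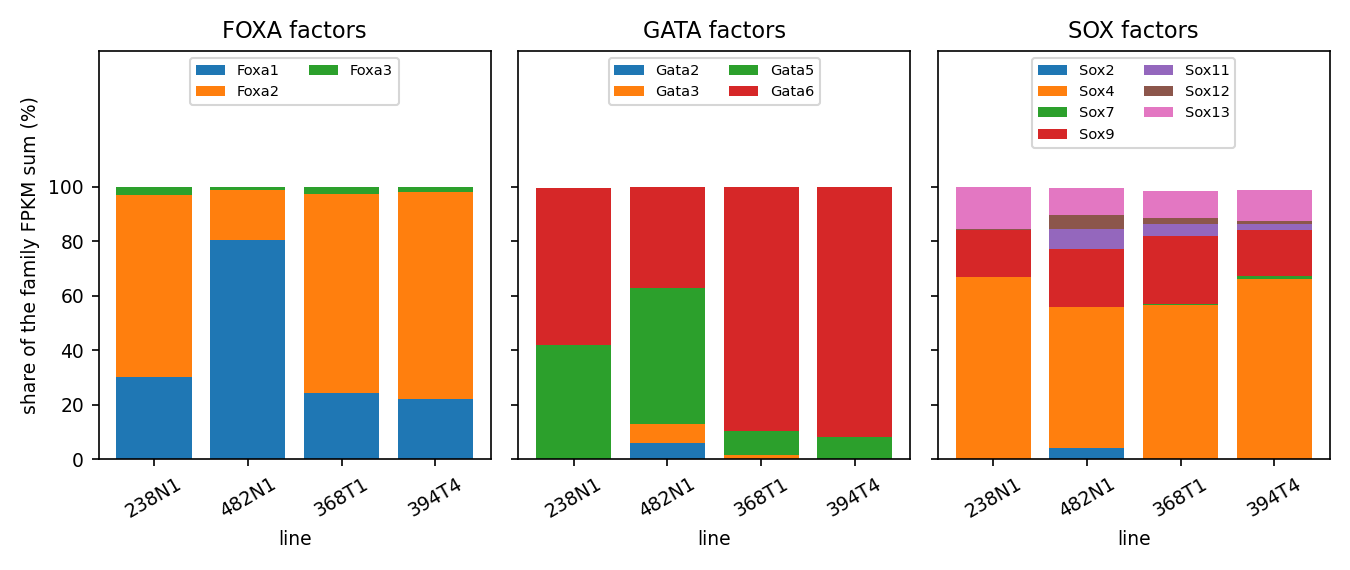
Share of each paralog in the FPKM sum of its family, in percent, for the FOXA, GATA and SOX factors, 1 bar per line (1 library each). Only paralogs reaching 1 FPKM in a line are drawn, so bars can end just under 100, and the figure shows Foxa1 at 80.7% of FOXA in 482N1 and Gata5 at 41.8% and 49.8% of GATA in 238N1 and 482N1.

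Gata6 was expressed in all 4 lines and was lowest in 482N1. The gene lies on chromosome 18, 11052508 to 11085633 (mm9, plus strand). Its level was 22.9 FPKM in 394T4, 21.4 in 238N1, 16.3 in 368T1 and 8.77 in 482N1. The groups overlapped, since 238N1 lay between the non-metastatic lines. The limma difference was -0.46 (SE 0.47, adjusted p = 0.603), and without 482N1 it was 0.14 (adjusted p = 0.827). The annotated gene 1010001N08Rik overlaps Gata6 on the other strand, and no strand setting is given in the sources used here, so reads of the pair cannot be told apart.

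A second GATA gene, Gata5, was higher in both metastatic lines without passing the test. Gata5, a paralog known from heart and gut endoderm, reached 15.5 FPKM in 238N1 and 11.7 in 482N1, but only 1.61 in 368T1 and 2.05 in 394T4. The groups did not overlap (difference 2.36, SE 0.26), and limma's adjusted p was 0.124. Gata6 made up 89.5% and 91.8% of the summed FPKM of the 6 GATA genes in 368T1 and 394T4, 57.8% in 238N1 and 37.2% in 482N1. The ratio of Gata6 to Gata5 was 10.1 and 11.2 in the non-metastatic lines, 1.38 in 238N1 and 0.747 in 482N1. Gata2 and Gata3 were above 1 FPKM in 482N1 alone, at 1.40 and 1.65 FPKM, and Gata4 was listed at 0 in every line.

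Cebpa was low in every line. The gene has 1 exon and lies on chromosome 7, 35904312 to 35906945 (mm9, plus strand). Its level was 4.41 FPKM in 394T4, 2.56 in 238N1, 1.95 in 368T1 and 1.18 in 482N1. The groups overlapped, and the difference was -0.52 (SE 0.47, limma adjusted p = 0.556). With 1 line left out at a time it ranged from -0.96 (without 368T1) to -0.084 (without 394T4). Cebpb, a paralog tied to inflammation and acute-phase responses, was far more abundant, with 26.0 FPKM in 482N1 and in 368T1, 23.5 in 394T4 and 17.6 in 238N1. Cebpa was 2.86% to 8.11% of the family sum over Cebpa, Cebpb, Cebpd, Cebpe and Cebpg. Cebpd was high in 1 line, reaching 21.3 FPKM in 394T4, with 7.19 in 368T1 as its next highest value.

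Sox9 was present in all 4 lines and highest in 482N1. The gene lies on chromosome 11, 112643538 to 112649074 (mm9, plus strand). Its level was 32.2 FPKM in 482N1, 17.8 in 368T1, 16.0 in 394T4 and 13.7 in 238N1. The metastatic lines therefore held both ends of the order, 2.35-fold apart, with the non-metastatic lines between them. The difference was 0.31 (SE 0.44, limma adjusted p = 0.710). Without 482N1 it was -0.28 (limma adjusted p = 0.582). The non-coding gene 2610035D17Rik, at 112905209 to 113063152 on the same chromosome, was listed at 0 in 368T1 and had 3.73 FPKM in 238N1, 2.99 in 394T4 and 1.64 in 482N1. Of 8 antisense and nearby RNAs looked up, 3 were in the table, 2 were tested and none passed.

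Sox2 had a value above 0 in 482N1 alone. The gene has 1 exon and lies on chromosome 3, 34548927 to 34551383 (mm9, plus strand), inside the long non-coding gene Sox2ot on the same strand. Its level was 6.18 FPKM in 482N1, the 41.1st percentile of protein-coding genes above 0 in that line, and it was listed at 0 in 238N1, 368T1 and 394T4. Sox2ot was listed at 0 in all 4 lines. The group difference rests on that 1 line (1.42, SE 1.04, limma adjusted p = 0.486, and 0 without 482N1).

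Of the 7 SOX genes that reached 1 FPKM in a line, Sox4, Sox9, Sox11, Sox12 and Sox13 were highest in 482N1. Sox2 reached 1 FPKM only in 482N1 and Sox7 only in 394T4, so the filter fixed where these were highest. The share of all genes highest in 482N1 was not counted, so this is a description of the SOX genes alone. Sox7, an endothelial SOX factor, had 1.03 FPKM in 394T4 and 0.0682 in 482N1. Sox11 and Sox12, relatives of Sox4 known from embryonic progenitors, stood at 11.04 and 7.72 FPKM there. Sox11 was listed at 0 in 238N1, with 3.35 FPKM in 368T1 and 1.99 in 394T4, and Sox12 was at 0.267, 1.46 and 1.07 FPKM in these lines. Sox4 was the most abundant SOX transcript in every line, at 51.7% to 66.8% of the family sum. Sox9 made up 17.1% to 24.9% of that sum, a narrower range than its FPKM, because the sum itself was 150.3 FPKM in 482N1 and 71.5 to 93.8 FPKM in the other lines.

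Stromal genes were likewise highest in 482N1. Of 18 stromal, endothelial and immune markers in the table, 4 reached 1 FPKM in 482N1, 1 did so in each non-metastatic line and 0 in 238N1. Their summed level was 4.25 FPKM in 368T1, 5.50 in 394T4, 40.9 in 482N1 and 1.16 in 238N1. In 482N1 this sum came mainly from Col1a1 (16.3 FPKM), Acta2 (16.3 FPKM) and Col3a1 (5.82 FPKM). Of the 18, 9 genes, among them the leukocyte gene Ptprc, the endothelial gene Pecam1 and the fibroblast genes Dcn and Lum, were listed at 0 in all 4 lines. The part of these genes in the values of Sox2, Foxa1, Foxa2, Gata6 and Sox9 in 482N1 was not tested.

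Hopx was listed at 0 in all 4 lines. The gene lies on chromosome 5, 77515468 to 77544186 (mm9, minus strand). The annotated genes snoU13 and Gm15830 overlap it on the other strand. Whether the 0 is absence of RNA or a failed estimate was not tested. The alveolar type 1 markers Ager and Pdpn were listed at 0 throughout as well, while the type 1 gene Aqp5, a water channel, was abundant, reaching 191.4 FPKM in 482N1 and 81.4 in 238N1 but 29.2 in 368T1 and 22.9 in 394T4.

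**Figure D3:**
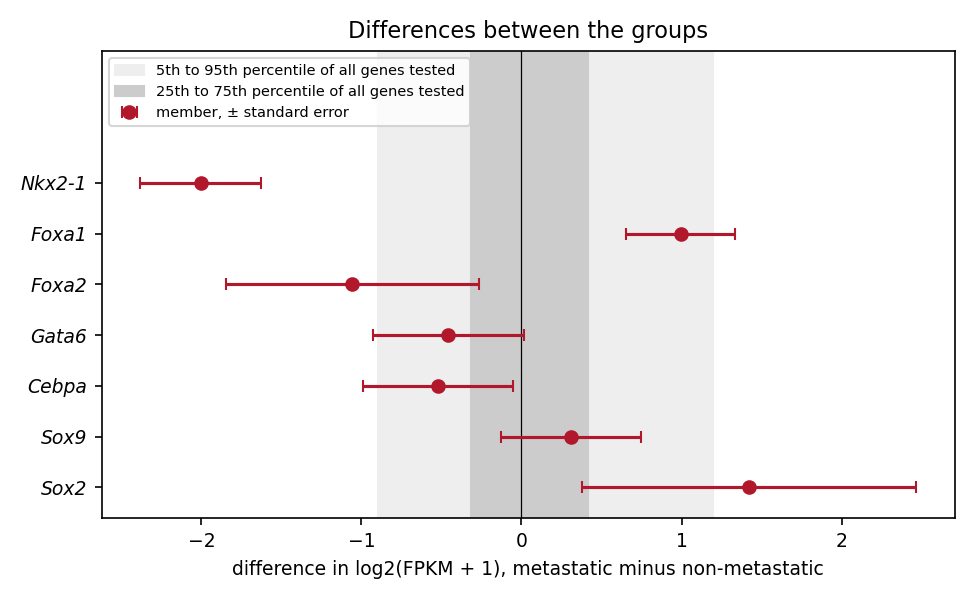
Difference in log2(FPKM + 1), metastatic minus non-metastatic, of the 7 tested factors with limma's standard error (2 lines per group), over the spread of all 12425 genes tested (light band 5th to 95th, dark band 25th to 75th percentile). Nkx2-1 (-2.004) and Foxa2 (-1.06) lie below the 5th percentile of -0.90 and Sox2 (1.42) above the 95th of 1.20, and no factor passed the adjusted test.

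Line by line, 482N1 differed most in these factors. A fold of 4 on FPKM + 1 separated 2 of the 7 factors, Foxa2 and Sox2, between 238N1 and 482N1, where 4.43% of all genes were that far apart. Foxa2 and Sox2 also separated 482N1 from 368T1 (background 6.34%), and Nkx2-1 joined them between 482N1 and 394T4 (5.59%). Sox2 passed the filter through 482N1 alone, which fixed its gap of over 4-fold from each other line. With Sox2 set aside, Foxa2 still separated 482N1 from each other line. Nkx2-1 alone separated 238N1 from 394T4 (3.35%). No factor was that far apart between 238N1 and 368T1 (4.03%) or between the non-metastatic lines (3.27%). Apart from Nkx2-1, the line 238N1 was within 1.49-fold of at least 1 non-metastatic line in every factor above 0.

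Nkx2-1 and Foxa1 lie on chromosome 12 with 1003722 bases between them, and their neighbours were read from 500 kb before Nkx2-1 to 500 kb after Foxa1, a window chosen after the values of both genes were seen. Of 10 protein-coding rows in the interval 6 were tested, of which 4 were higher without overlap (Mbip, Pax9, Mipol1 and Foxa1) against 28.3% of all genes, and 1, Nkx2-1, was lower. This count is no measure of the interval, because Nkx2-1 and Foxa1 set the window and Pax9 passed the filter through the metastatic lines alone. Of the other tested genes, Mbip and Mipol1 were higher without overlap and Prps1l3 overlapped. Pax9, a paired-box factor of foregut pharyngeal pouches, was listed at 0 in 368T1 and 394T4, while 238N1 had 3.19 FPKM and 482N1 had 1.75. Mipol1 had 4.37 FPKM in 482N1, 3.47 in 238N1, 1.27 in 394T4 and 1.24 in 368T1. Mbip had 5.84 FPKM in 238N1, 5.53 in 482N1, 4.15 in 394T4 and 3.60 in 368T1. None of these passed limma's test (adjusted p = 0.330 for Pax9, 0.335 for Mipol1 and 0.384 for Mbip).

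Prps1l3, which overlaps Mipol1, was the tested gene whose groups overlapped, with 35.6 FPKM in 482N1, 28.9 in 394T4, 28.2 in 238N1 and 22.6 in 368T1. Under the filter, Slc25a21 was listed at 0 in 368T1 and 394T4, while 482N1 had 0.800 FPKM and 238N1 had 0.684. Ttc6 had 0.834 FPKM in 482N1, 0.594 in 238N1 and 0.316 in each non-metastatic line. Slc25a21 and Pax9 overlap at their ends on opposite strands, so reads in the overlap cannot be assigned to either. Mbip, Pax9, Mipol1 and Foxa1 remained above without overlap under quantile, library sum, protein-coding sum and median scaling. For Pax9, listed at 0 in both non-metastatic lines, the sum scalings could not have given anything else. Prps1l3 joined these genes under quantile, library sum and protein-coding sum scaling. The share of all genes above in this way was 24.3% under quantile, 43.6% under library sum, 43% under protein-coding sum and 24.2% under median scaling.

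**Figure D4:**
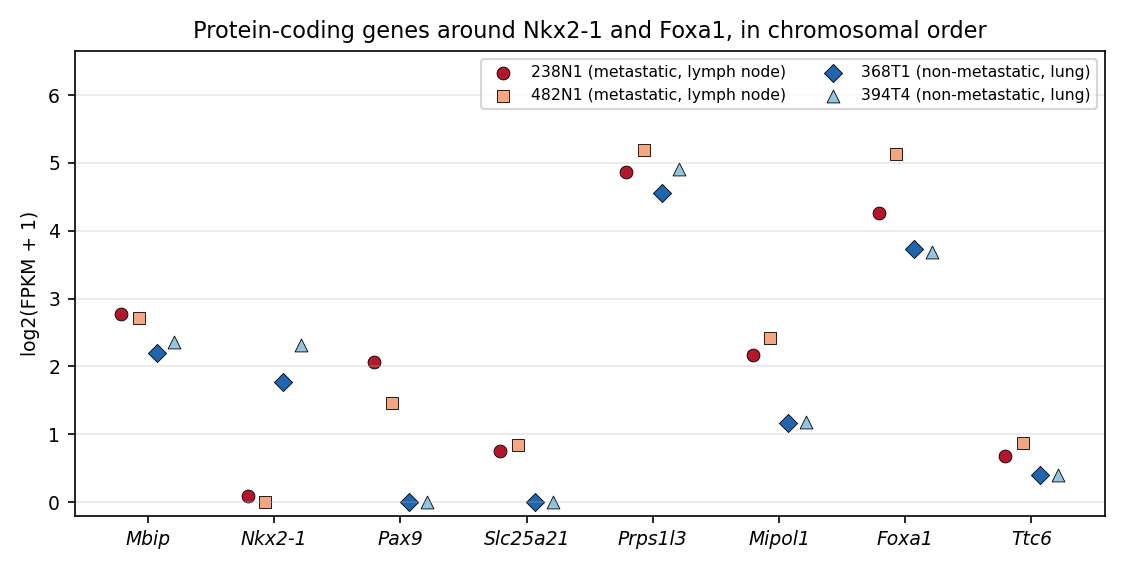
Level of the 8 protein-coding genes above 0 around Nkx2-1 and Foxa1, in their order along chromosome 12, as log2(FPKM + 1), 1 point per line and library. Nkx2-1 is higher in 368T1 and 394T4 (2.42 and 4.00 FPKM), while Pax9, Mipol1 and Foxa1 are higher in 238N1 and 482N1.

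At the Foxa2 locus the non-coding gene 9030622O22Rik lies 2673 bases downstream on the same strand. It was listed at 0 in 482N1, the line in which Foxa2 was lowest, while 238N1 had 5.31 FPKM, 394T4 had 3.31 and 368T1 had 2.82. By profile it was the second nearest of 59 candidate lineage genes to Foxa2 over the 4 lines, at a root mean square difference of 0.23 on the centred log2(FPKM + 1) scale. The nearest was Ehf, an epithelial ETS factor, at 0.20, likewise listed at 0 in 482N1, with 2.95 FPKM in 394T4, 2.90 in 238N1 and 1.93 in 368T1.

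Likeness was read in the same way for the other factors. Nearest to Nkx2-1 was Grhl2, an epithelial grainyhead factor (difference 0.26), which had 2.57 FPKM in 368T1 and 2.28 in 394T4 and no value above 0 in the metastatic lines. The next was Gkn2, a stomach gastrokine (0.35), with 5.46 FPKM in 394T4, 1.68 in 368T1, 0.618 in 238N1 and 0.118 in 482N1. Vegfa and Tead1 were nearest to both Foxa1 (0.27 and 0.28) and Sox9 (0.18 and 0.23), all 4 genes being highest in 482N1. Gata6 was nearest to Gprc5a (0.21) and Abca3 (0.28), Cebpa to Emp2 (0.32) and Nfix (0.32), and Sox2 to Ngfr (0.30) and Sox12 (0.44). With 4 lines, likeness is a description. Nkx2-1, Grhl2 and Gkn2 passed the filter wholly or mainly through the non-metastatic lines, and Sox2, Ngfr and Sox12 through 482N1. Low genes let in by the same lines tend to share a profile, so these likenesses follow in part from the filter.

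Genes that Nkx2-1 and its partners serve in alveolar type 2 and club cells were mostly under 1 FPKM: of 17 genes, 7 reached it in 394T4, 5 in 368T1, 5 in 238N1 and 4 in 482N1. Of the 17 in the list 5 were listed at 0 everywhere and 6 were tested. None of the 6 passed, 5 had a negative and 1 a positive difference, and the median was -1.13 against 0.05 over all genes tested. In 4 of the 6 both metastatic lines were below, against 26.9% of all genes. Of these 4, Sftpb passed the filter through 394T4 alone, and its order among the other lines rests on values near 0. Sftpb, a surfactant protein, reached 13.7 FPKM in 394T4, the line with the most Nkx2-1, but 0.282 in 368T1, 0.0430 in 238N1, and it was listed at 0 in 482N1 (limma adjusted p = 0.435). Sftpc, the defining surfactant gene of type 2 cells, stood at 1.90 FPKM in 394T4 and was listed at 0 elsewhere. Abca3, the lamellar body lipid transporter, was expressed in all 4 lines at 16.1 to 25.8 FPKM. Muc1, an apical mucin, was lowest in 482N1 (5.03 FPKM), against 48.3 in 368T1, 26.9 in 394T4 and 19.2 in 238N1.

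Type 1 genes were mixed, with none of 6 tested members past the test, 4 negative and 2 positive, and a median of -0.28. Emp2, a tetraspan membrane protein, had 34.02 FPKM in 394T4, 29.2 in 368T1, 19.5 in 238N1 and 17.01 in 482N1 (difference -0.76, SE 0.18, limma adjusted p = 0.333). Of airway genes, Foxj1, the master regulator of ciliated cells, had 15.1 FPKM in 368T1, 4.71 in 394T4, 1.19 in 482N1 and 0.975 in 238N1 (limma adjusted p = 0.335). The ciliated list did not follow Foxj1 as a whole. Tppp3, the other ciliated gene tested, had 13.3 FPKM in 482N1, 8.37 in 394T4, 5.98 in 368T1 and 0.973 in 238N1, and its groups overlapped. The rest of that list was under the filter or had no row. The basal cell factor Trp63 was listed at 0 in every line. None of the 2 basal, 2 ciliated and 1 neuroendocrine genes tested passed.

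Several regulators of stomach, liver and gut were more abundant than Nkx2-1. Of 16 genes in this list 12 were tested and none passed, 5 with a negative and 7 with a positive difference and a median of 0.20. Hnf4a, a liver and gut nuclear receptor, was listed at 0 in 368T1 but had 158.3 FPKM in 238N1, 137.2 in 482N1 and 115.1 in 394T4 (limma adjusted p = 0.447). Cdx2, the intestinal homeobox factor, had 1.80 FPKM in 482N1, against 20.5 in 238N1, 19.2 in 394T4 and 18.6 in 368T1. Lgals4, a gut galectin, was also lowest in 482N1, with 15.2 FPKM against 186.4 to 224.8 FPKM in the others. Cdx2 and Lgals4 shared with Foxa2 and Gata6 a lowest value in 482N1. Ctse, a gastric protease, had 100.7 FPKM in 238N1, 48.9 in 394T4, 37.4 in 368T1 and 31.0 in 482N1.

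**Figure D5:**
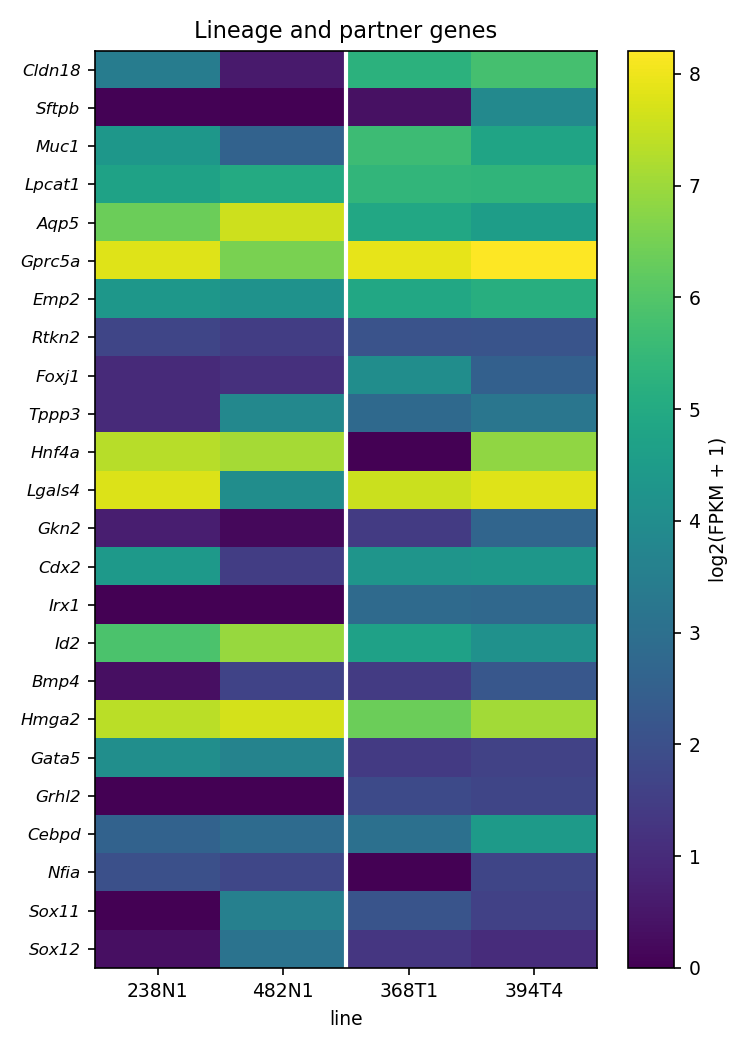
Levels as log2(FPKM + 1), from 0 (dark) upward, of genes named by rule from the alveolar, ciliated, gastric and gut, embryonic tip and partner factor lists, 1 column per line (1 library each), metastatic lines left of the white line. Cdx2 and Lgals4 are lowest in 482N1, Gata5 is higher in both metastatic lines, and Irx1 and Grhl2 are listed at 0 in both.

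Genes of the embryonic lung tip, where Sox9 acts, did not move together. Of 11 genes 8 were tested and none passed, 3 negative and 5 positive, with a median of 0.28. Irx1, an Iroquois homeobox factor of lung epithelium, had 6.17 FPKM in 368T1 and 5.83 in 394T4 but no value above 0 in the metastatic lines (limma adjusted p = 0.119). Id2, an inhibitor of helix-loop-helix factors, had 121.7 FPKM in 482N1 and 58.4 in 238N1, against 25.1 in 368T1 and 16.9 in 394T4 (limma adjusted p = 0.328). Among 40 partner and paralogous factors 21 were tested and none passed, with a median of 0.28, 9 with both metastatic lines above (28.3% of all genes) and 4 with both below (26.9%). Nfia, a nuclear factor I gene, was listed at 0 in 368T1, while 238N1 had 3.05 FPKM, 482N1 had 2.37 and 394T4 had 2.30.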

How the data were processed

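Total RNA from 4 cultured lines was made into Illumina TruSeq libraries and read as paired ends of 100 bp, per the design text. Alignment was to mm9, and the submitters' processing notes name TopHat, with no version. How alignments became gene values is not given in the sources used here. Per the file headers, the authors deposited FPKM values, 1 column for each line, and state no scaling between libraries. One further engineered allele that all 4 lines share, and some list genes, are not reported here.

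For a repeated symbol, the row of highest mean was used. Positions, gene types and overlaps came from GENCODE vM1 on NCBIM37, the assembly of mm9, which held 99% of the row IDs. Promoters came from RefSeq on GRCm38.p6, and the builds were never combined. Differences were tested with limma 3.58.1 (R 4.3.3) on log2(FPKM + 1), with a trend in the variance, for genes whose mean over the 4 lines was 1 FPKM or more, with all 4 libraries, no covariate, two-sided, Benjamini-Hochberg adjusted over all genes tested. The limma step alone was tried on simulated data, built from genes above 0 in all 4 lines. That leaves out genes with a listed 0, such as Nkx2-1 and Sox2. All 20 genes called over the whole table were listed at 0 in both lines of the lower group, so the simulation does not cover them. The grouping was by the label of metastasis status. All 8 factors were named. Of each list the members past the test were named, or the 4 with the largest difference, with members over 4-fold apart within a group, and for each factor the 2 list genes nearest in profile. Some of these genes are left out for length, and others (Gata2, Gata3, Gata4, Ctse, Sftpc, Abca3, Trp63, Ager, Pdpn and the chromosome 12 neighbours) were added after their values were seen. The factors and lists were chosen with earlier results of these data known.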

Additional observations from a re-analysis of the deposited data

How the results depend on the processing

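No factor passed in any of the 17 alternatives. Of 113 values of single factors 108 kept their sign, 4 changed it and 1, Sox2 without 482N1, was 0. Leaving out 1 library at a time gave differences from -2.18 to 0.067 for Foxa2, -1.06 to 0.14 for Gata6, -0.28 to 0.90 for Sox9, -0.96 to -0.084 for Cebpa (nearest 0 without 394T4), 0 to 2.84 for Sox2 and -2.28 to -1.73 for Nkx2-1, and each change of sign came without 482N1. Gata6 also changed sign under library sum scaling (0.15), where the median of all genes was 0.61. With the protein-coding sum that median was 0.24. Relative to the median every factor kept its sign under all 4 scalings (Gata6 -0.51 to -0.46, Foxa1 0.95 to 0.99). Subtracting the median largely undoes a scaling of whole libraries, so this agreement is no separate check of the signs. Nkx2-1 stood at -4.66 with a pseudocount of 0.1 and -0.70 with 5.

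Over all genes, 14 higher and 6 lower calls became 1 and 1 with no filter, 7 and 3 at a mean of at least 5 FPKM, 281 and 97 under library sum scaling, and 31 and 13 without the trend. There were 15 lower calls with robust=TRUE. Higher calls were 0 with genes listed at 0 removed and 0 with exact 0 as missing (989 and 988 at an unadjusted limma p under 0.05). With any 1 library left out, both directions had 0 calls, with 310 to 1249 higher and 264 to 1277 lower at an unadjusted limma p under 0.05.

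Factors over 4-fold apart were 0 in each pair of lines with a pseudocount of 5, and 1 (Nkx2-1) between 238N1 and 368T1 with a pseudocount of 0.1. Between 482N1 and 368T1 they were 1 (Sox2) under protein-coding sum scaling, 2 (Foxa1 and Sox2, without Foxa2) under library sum scaling, and 3 (Nkx2-1, Foxa2 and Sox2) with a pseudocount of 0.1. Library sum scaling put 2 factors, Foxa1 and Sox9, above without overlap. The cause of these changes was not tested. No paired analysis was possible because the labels give no replicate numbers that the groups share. Read depth is unknown, so no counting interval is given for low values such as those of Nkx2-1.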
